A study of Homo sapiens with 4 samples.

Results

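The AP-1 family was followed here through 10 genes, JUN, JUNB, JUND, FOS, FOSB, FOSL1, FOSL2, BATF, BATF3 and ATF3, taken by name from the JUN, FOS, BATF and ATF3 groups out of 19775 measured genes. They were carried by 22 of 54675 probe sets, all of which are given. The values came from 4 Affymetrix expression arrays of total RNA from KM-H2, an established line of Hodgkin lymphoma cells. In 2 arrays, called knockdown, the cells had been given small interfering RNA against PTPN1, a tyrosine phosphatase that acts on JAK kinases, and in the other 2, called non-silencing, a control. No other genetic change, agent or time was labelled, and every array came from the same line. Within a group the arrays are technical replicates according to the series text, and SDs, SEs and p-values therefore reflect spread between arrays rather than cultures. Arrays are named by their group and by the replicate number 1 or 2 in their titles, and a difference within a number is that between its knockdown and its non-silencing array. In bulk RNA, fewer cells with a transcript and less of it per cell cannot be told apart.

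AP-1 is a family of transcription factors that bind DNA as pairs held together by a leucine zipper, with a basic stretch beside it that contacts the DNA. JUN proteins pair with each other or with FOS proteins, whereas FOS proteins need a JUN partner, and the BATF proteins lack the long activating regions of the FOS proteins and bind with JUN proteins beside IRF factors in lymphocytes. Hodgkin lymphoma cells are known for high JUN and JUNB and for BATF3, and AP-1 is known there to act on genes such as TNFRSF8, LGALS1 and CD274.

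Expression values are on a log2 scale, in which a difference of 1 is a doubling, and the authors made them by RMA. The median of all probe sets on an array lay between 5.099 and 5.124, the lower quartile between 4.07 and 4.10 and the upper quartile between 7.12 and 7.18. PTPN1, read by the brightest of its probe sets, had 7.002 and 7.363 in the knockdown arrays, against 8.159 and 8.397 in the non-silencing arrays, a log2 difference of -1.10 (SE 0.18, limma adjusted p = 0.769), or -0.30 when its probe sets were averaged. The other PTPN1 probe sets read between 3.98 and 5.01, below the median of all probe sets on every array, and differed by 0.0085, -0.065 and -0.033. All 10 markers of the Hodgkin line, among them TNFRSF8 and IRF4, read above the median of all probe sets on all 4 arrays. Of the B cell markers 3 of 6 did so, among them CR2 at 12.46 to 12.68, while MS4A1, which encodes CD20, was above it on 1 array only. So did 4 of 8 T cell markers, including CD3D, and 2 of 7 myeloid markers, CD14 and CSF1R. Of the markers of stroma and epithelium 4 of 11 did, among them COL1A1 at 8.63 to 10.01. CD3E, LYZ and EPCAM lay below the median on every array. The difference between the 3' and 5' control probe sets of beta-actin, which reflects RNA integrity and amplification, was 1.33 and 0.969 in knockdown arrays 1 and 2, against 1.31 and 0.972 in non-silencing arrays 1 and 2. The 18S ribosomal RNA controls averaged 12.4 and 12.2 in the knockdown arrays and 11.9 and 11.7 in the non-silencing arrays.

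Promoter sequences of 4 members are shown because they carry letters that AP-1 and its relatives recognise, of which JUN and ATF3 share 1 motif, TGACATCA. Each is the window from 250 bases before to 50 bases after the gene's start, 5' to 3' on the gene's strand, from RefSeq with build GRCh38.p14. Capitals mark TGANTCA (the AP-1 site), TGACGTCA (the cAMP response element), TGACATCA or TTACCTCA (variants described in the JUN promoter), searched on both strands.
JUN, chr1:58783998-58784297, minus strand: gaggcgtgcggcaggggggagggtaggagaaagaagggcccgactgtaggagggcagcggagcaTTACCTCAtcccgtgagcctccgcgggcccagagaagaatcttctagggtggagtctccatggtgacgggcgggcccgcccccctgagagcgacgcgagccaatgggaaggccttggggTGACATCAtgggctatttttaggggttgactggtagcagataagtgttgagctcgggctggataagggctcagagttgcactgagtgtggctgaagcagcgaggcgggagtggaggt
ATF3, chr1:212565157-212565456, plus strand: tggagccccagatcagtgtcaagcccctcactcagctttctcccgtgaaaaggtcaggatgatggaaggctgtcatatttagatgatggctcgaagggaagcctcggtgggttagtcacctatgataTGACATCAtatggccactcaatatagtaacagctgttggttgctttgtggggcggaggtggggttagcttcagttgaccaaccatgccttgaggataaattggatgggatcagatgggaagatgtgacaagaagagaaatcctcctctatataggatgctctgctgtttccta
JUND, chr19:18281573-18281872, minus strand: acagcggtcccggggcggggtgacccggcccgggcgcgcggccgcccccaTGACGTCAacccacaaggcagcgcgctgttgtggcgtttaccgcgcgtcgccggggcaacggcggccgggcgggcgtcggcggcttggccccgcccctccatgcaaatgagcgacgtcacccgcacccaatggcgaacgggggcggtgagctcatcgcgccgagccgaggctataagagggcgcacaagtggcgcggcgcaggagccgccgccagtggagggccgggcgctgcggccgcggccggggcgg
FOSL2, chr2:28392608-28392907, plus strand: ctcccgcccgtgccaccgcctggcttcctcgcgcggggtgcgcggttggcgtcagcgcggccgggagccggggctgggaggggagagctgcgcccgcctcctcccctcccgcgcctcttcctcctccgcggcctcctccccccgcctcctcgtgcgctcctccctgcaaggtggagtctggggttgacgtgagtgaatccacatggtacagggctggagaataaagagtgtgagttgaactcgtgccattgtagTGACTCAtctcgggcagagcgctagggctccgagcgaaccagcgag

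Windows were listed for 8 of the 10 members, 9 windows in all since ATF3 has 2 starts, and none was listed for FOSL1 and BATF3. TGACATCA was in 2 of the 9, starting 67 bases before the start of JUN and 123 bases before the upstream start of ATF3, and in 2.61% of the 35116 windows of all genes. TTACCTCA was in the JUN window alone, 186 bases before the start, and in 0.715% of all windows. TGACGTCA was in the JUND window, 200 bases before the start (1.85% of all windows), and TGANTCA in the FOSL2 window, 4 bases after the start (7.71% of all windows). TTCNNNGAA, the letters of a STAT site, was in 0 of the 9 windows and in 7.66% of all windows. The JUNB window held none of these motifs. These are matches of letters, and no binding was measured.

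BATF3, BATF, ATF3, JUND, JUNB and JUN were the members with strong signal in KM-H2, and the 4 FOS genes were dim. The brightest probe set of each of these 6 lay above the upper quartile on all 4 arrays, a place held by 22.9% of all probe sets. Taking the brightest favours genes with several probe sets, and of all 22 member probe sets 7 held that place. The other JUN probe sets stood between percentiles 54.0 and 78.1, and the other JUND probe sets between 27.4 and 52.6. Probe sets differ in how well they bind, so each is placed here among all values on its own array, and the order is one of signal and not of transcript amounts. BATF3 stood between percentiles 97.5 and 98.8, BATF between 96.3 and 98.5, ATF3 between 95.1 and 95.8, JUND between 93.8 and 96.0, JUNB between 93.7 and 94.9 and JUN between 88.2 and 90.5. FOSL1 stood between 49.9 and 65.2, the brightest FOSL2 probe set between 50.4 and 57.3, FOSB between 45.3 and 47.8 and FOS between 33.7 and 44.3. The ranges of BATF3 and BATF overlapped, JUND overlapped both ATF3 and JUNB, and JUN lay below these and above all FOS genes. Among the FOS genes FOSL1 and FOSL2 overlapped.

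**Figure D1:**
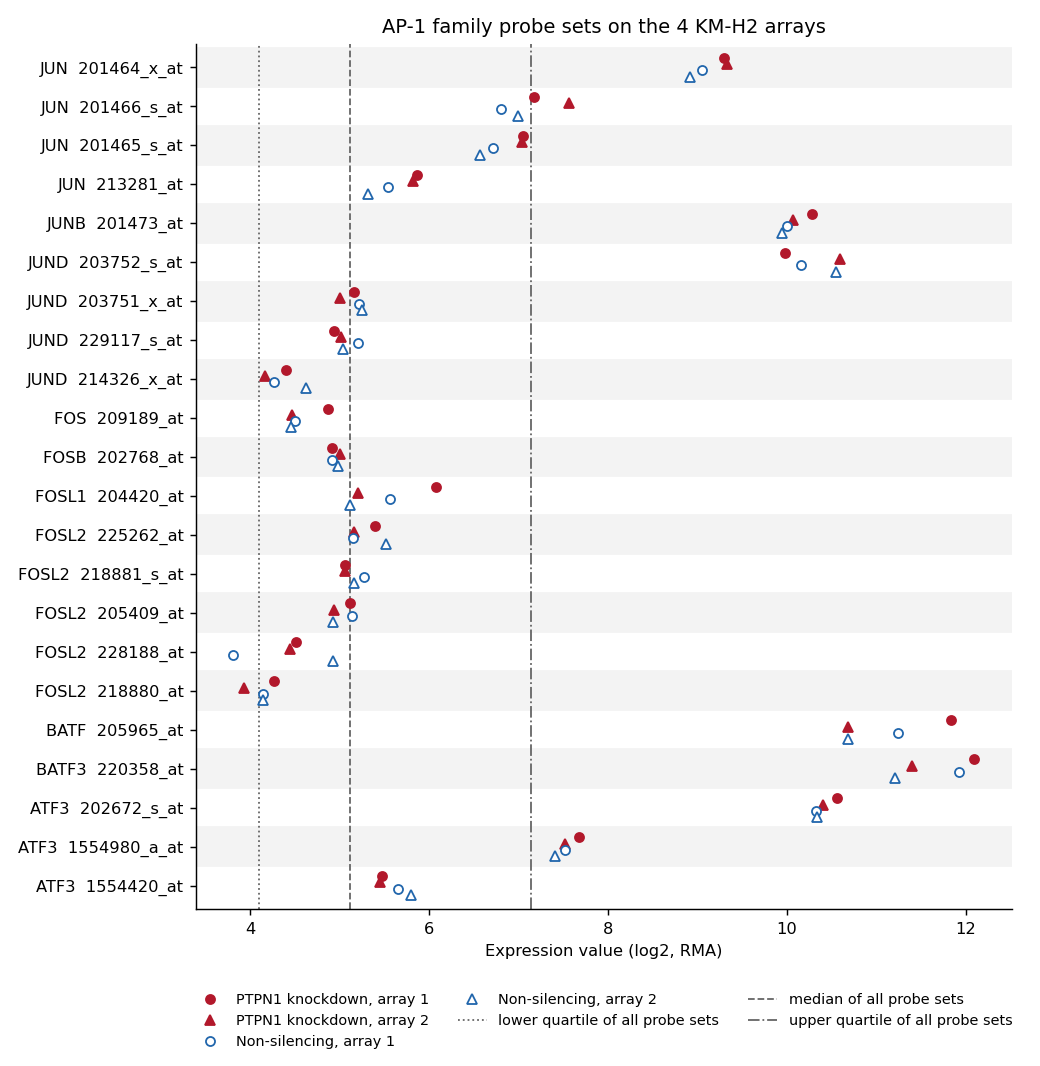
Log2 RMA value (horizontal axis) of each of the 22 AP-1 probe sets, by gene and probe set, on the 2 knockdown arrays (filled red) and the 2 non-silencing arrays (open blue), with circles for arrays numbered 1 and triangles for those numbered 2. Vertical lines give the quartiles of all probe sets, averaged over the arrays. The 4 JUN probe sets each have both knockdown arrays to the right of both non-silencing arrays, whereas BATF and BATF3 split by array number.

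Across the family, 8 of 10 members had a positive log2 difference, knockdown minus non-silencing, against 48.2% of all genes. The median over the members was 0.19, and over all genes -0.0066. None passed the limma test with Benjamini-Hochberg adjustment over all genes (adjusted p = 1.0 for each member), where 0 of 19775 genes (0%) were called. In limma 1 of the 10, JUN, had an unadjusted p under 0.05, against 509 of 19775 genes. The arrays of the groups did not overlap, with knockdown higher, for JUN, JUNB and ATF3, 3 of 10 members, against 12.4% of all genes, and for 0 members with knockdown lower, against 15.0%. Knockdown read higher within both array numbers for 7 of 10 members, against 27.8% of all genes, and lower within both for 0, against 29.8%. The 7 include FOS and BATF, which were higher within number 2 by only 0.0061 and 0.0066. Over the 22 probe sets, 11 were higher within both numbers and 4 lower within both, against 27.7% and 28.5% of all probe sets. All 4 JUN probe sets, which read the same transcript, are among the 11. The members' median difference was 0.24 for number 1 and 0.053 for number 2. Leaving out knockdown array 1 gave a median of 0.018, with 5 of 10 members above 0. That setting compares knockdown array 2 with both non-silencing arrays. Array numbers are then uneven between the groups, and differences between numbers enter these values.

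JUN, the founding member and the partner of most FOS and BATF proteins, read higher in both knockdown arrays on all 4 of its probe sets. The brightest, 201464_x_at, whose suffix marks probes that may also bind other transcripts, had 9.29 and 9.34 in the knockdown arrays, against 9.05 and 8.92 in the non-silencing arrays. Group means were 9.32 ± 0.029 in knockdown and 8.99 ± 0.093 in non-silencing (SD, n = 2 each). The log2 difference was 0.33 (SE 0.13), a fold of 1.26 with a limma unadjusted p of 0.0498, and JUN ranked 680 of 19775 genes from the highest difference. It was 0.24 within number 1 and 0.42 within number 2, and ranged from 0.26 to 0.39 when 1 array was left out.

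The other JUN probe sets, which read the same transcript on the same arrays and so are not further replicates, gave like differences. Probe set 201466_s_at had 7.18 and 7.57 in the knockdown arrays, against 6.80 and 6.99 in the non-silencing arrays, a difference of 0.48 (SE 0.18). Probe set 201465_s_at had 7.05 and 7.04 in knockdown, against 6.72 and 6.56 in non-silencing, a difference of 0.40 (SE 0.13). The dimmest, 213281_at, had 5.87 and 5.81 in knockdown, against 5.54 and 5.32 in non-silencing, a difference of 0.41 (SE 0.14). In a limma fit over all probe sets the unadjusted p of the 4 lay between 0.0261 and 0.0497 and none passed after adjustment. Of all 54675 probe sets, 1369 had an unadjusted p under 0.05 in that fit. Knockdown lay above non-silencing without overlap in 13.4% of all probe sets.

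JUNB, a JUN relative that is abundant in Hodgkin cells and acts on the CD30 gene TNFRSF8, had a smaller difference. Its probe set read 10.29 and 10.08 in the knockdown arrays, against 10.01 and 9.94 in the non-silencing arrays. The lower knockdown array stood just above the higher non-silencing array. The log2 difference was 0.21 (SE 0.14), made of 0.28 within number 1 and 0.13 within number 2, and leaving out 1 array moved it from 0.10 to 0.31.

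JUND, the JUN gene that many cells express without stimulation, did not separate the groups. Its bright probe set 203752_s_at read 9.98 and 10.60 in the knockdown arrays, against 10.16 and 10.56 in the non-silencing arrays, a difference of -0.07 (SE 0.26). Both arrays numbered 2 read above both arrays numbered 1. The other 3 JUND probe sets lay between 4.16 and 5.25, near or below the median of all probe sets, and differed by -0.15, -0.15 and -0.16. For 2 of these, 203751_x_at and 229117_s_at, both knockdown arrays lay below both non-silencing arrays, as in 15.3% of all probe sets.

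FOS and FOSB, early genes that serum and other stimuli switch on for a short time, gave little signal. FOS read 4.87 and 4.46 in the knockdown arrays, against 4.50 and 4.46 in the non-silencing arrays, below the median of all probe sets on every array. Knockdown array 1 alone stood apart, and the difference of 0.19 (SE 0.18) was 0.37 within number 1 and 0.0061 within number 2. FOSB read 4.908 and 4.998 in knockdown, against 4.917 and 4.975 in non-silencing, a difference of 0.01 (SE 0.13).

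FOSL1 and FOSL2, which encode FRA1 and FRA2, FOS relatives that lack the FOS activation domain, were also near the median signal. FOSL1 read 6.08 and 5.21 in the knockdown arrays, against 5.57 and 5.12 in the non-silencing arrays, a difference of 0.30 (SE 0.33). The groups overlapped, and each array numbered 1 read above both arrays numbered 2. The 5 FOSL2 probe sets lay between 3.81 and 5.51 on all arrays. The brightest, 225262_at, read 5.39 and 5.16 in knockdown, against 5.14 and 5.51 in non-silencing, a difference of -0.05 (SE 0.18) that was 0.25 within number 1 and -0.35 within number 2. The remaining 4 differed by -0.15, -0.0061, 0.11 and -0.04, and for the first of them, 218881_s_at, knockdown lay below non-silencing without overlap. RMA compresses differences among dim probe sets.

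BATF, a partner of JUN proteins in T and B cells, and BATF3, its relative known from dendritic cells, had the highest percentiles and varied more with array number than with knockdown. BATF read 11.84 and 10.69 in the knockdown arrays, against 11.25 and 10.68 in the non-silencing arrays. The arrays numbered 2 were alike in both groups, and the difference of 0.30 (SE 0.42) was 0.59 within number 1 and 0.0066 within number 2. Without knockdown array 1 it was -0.28, and without knockdown array 2 it was 0.87, settings in which the array numbers are uneven between the groups.

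BATF3 read 12.10 and 11.40 in the knockdown arrays, against 11.92 and 11.21 in the non-silencing arrays. Its difference of 0.19 (SE 0.34) was nearly the same within the array numbers, 0.18 for number 1 and 0.20 for number 2, although the groups overlapped. Leaving out 1 array moved it from -0.17 to 0.54, settings in which the array numbers are uneven between the groups.

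ATF3, a stress-induced factor that pairs with JUN proteins, had probe sets that differed in opposite directions. The brightest, 202672_s_at, read 10.57 and 10.40 in the knockdown arrays, against 10.32 and 10.34 in the non-silencing arrays, a difference of 0.15 (SE 0.13). Probe set 1554980_a_at read 7.68 and 7.52 in knockdown, against 7.52 and 7.41 in non-silencing, a difference of 0.13 (SE 0.14). Probe set 1554420_at read 5.47 and 5.45 in knockdown, against 5.65 and 5.80 in non-silencing, a difference of -0.26 (SE 0.13). Each of the 3 had its groups apart, the first 2 with knockdown higher and the last with knockdown lower, and with the mean of its probe sets ATF3 differed by 0.0074. For 1554980_a_at the gap was small, with 7.517 in the lower knockdown array against 7.515 in the higher non-silencing array.

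**Figure D2:**
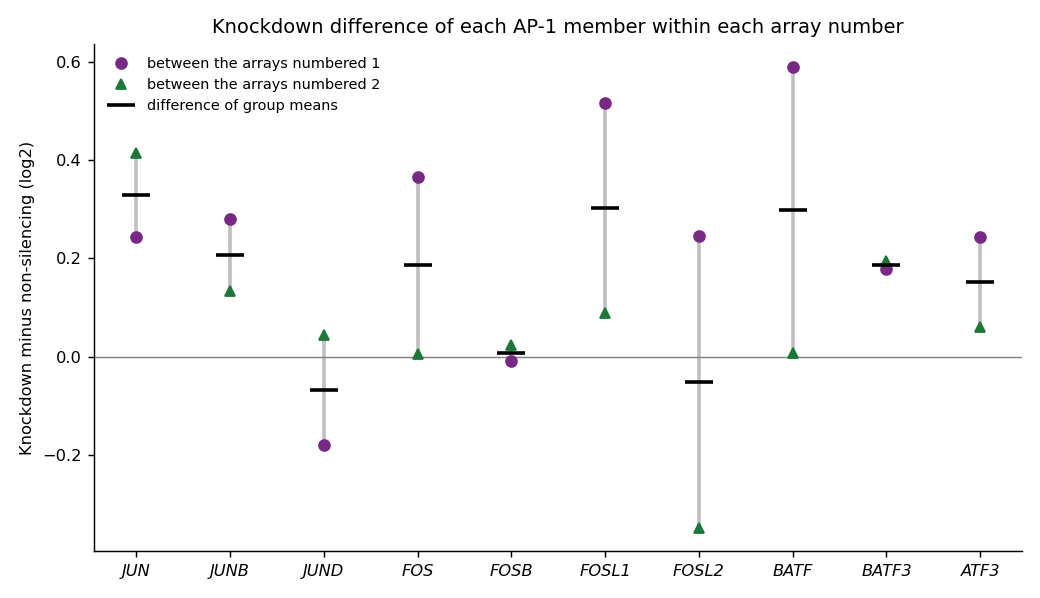
Log2 difference, knockdown minus non-silencing, of each AP-1 member's brightest probe set between the arrays numbered 1 (purple circles) and between those numbered 2 (green triangles), with the difference of group means as a black bar. JUN lies at 0.24 and 0.42, BATF3 at 0.18 and 0.20, and BATF at 0.59 and 0.0066.

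The difference between array numbers exceeded the knockdown difference in size in 7 of 10 members, all but JUN, JUNB and ATF3, against 62.8% of all genes. In a limma fit with terms for group and number, BATF differed by -0.85 (number 2 minus number 1, SE 0.16, adjusted p = 0.0312), BATF3 by -0.71 (SE 0.10, adjusted p = 0.0199), FOSL1 by -0.66 (SE 0.13, adjusted p = 0.0376) and JUND by 0.51 (SE 0.11, adjusted p = 0.0435). These 4 of 10 members passed, where 9.85% of all genes did. In the same fit the knockdown term passed for 0 members, with adjusted p from 0.396 for JUN to 0.987 for FOSB, against 0.364% of all genes. The beta-actin difference also separated the numbers, as given above, and its part in these values was not tested.

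**Figure D3:**
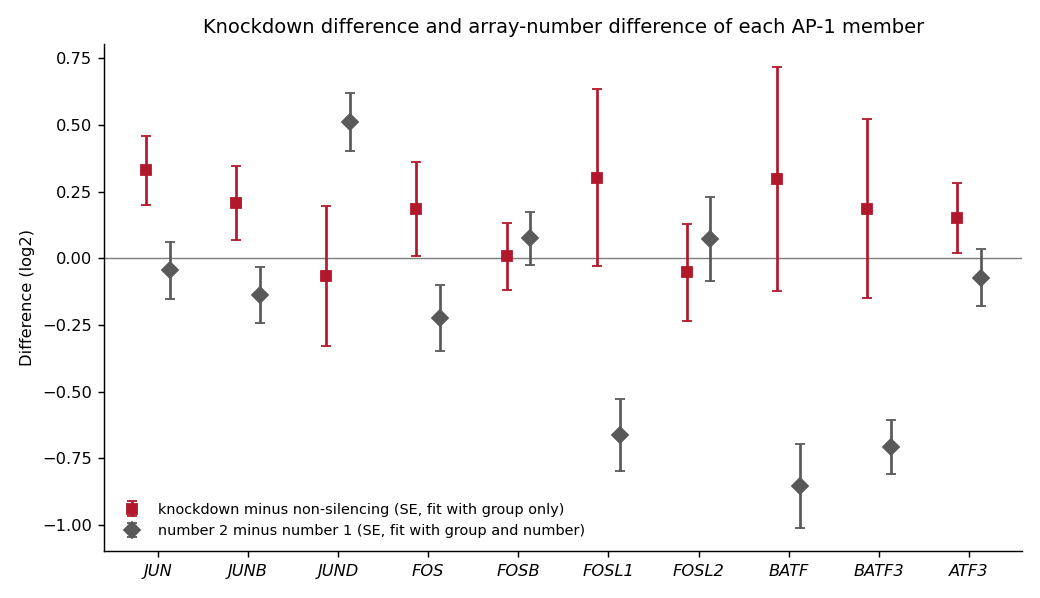
Log2 difference of each AP-1 member for knockdown minus non-silencing (red squares, fit with group only) and for number 2 minus number 1 (grey diamonds, fit with group and number), with moderated SEs as bars. JUN, JUNB and ATF3 have small number differences, while BATF, BATF3, FOSL1 and JUND differ by 0.51 to 0.85 in size between the numbers.

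BATF was the member whose 4 values spanned over 1 log2 unit. The 3 genes outside the family with the most similar values, by Euclidean distance between values centred on each gene's mean over the 4 arrays and among 9882 genes whose mean reached the median of all genes, were the amino acid transporter gene SLC7A5 (distance 0.132), TNFRSF8 (0.139) and the lectin gene CLEC2D (0.156). SLC7A5 read 9.61 and 8.65 in the knockdown arrays, against 9.11 and 8.59 in the non-silencing arrays. CLEC2D read 7.82 and 6.76 in knockdown, against 7.40 and 6.87 in non-silencing. All 3 had the order of BATF in that both arrays numbered 1 read above both arrays numbered 2. They were picked by their values on these same arrays, so this order follows from the choice and is no separate result.

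Among 10 genes described as AP-1 targets in Hodgkin or other lymphoma cells, 6 had a positive difference and 4 a negative one, with a median of 0.07. In limma 0 passed, and 1, MET, had an unadjusted p under 0.05, against 509 of 19775 genes. MET, a receptor tyrosine kinase gene, read 9.41 and 9.39 in the knockdown arrays, against 9.01 and 8.99 in the non-silencing arrays, a difference of 0.40 (SE 0.12) that was 0.40 within each array number. With the mean of its probe sets MET differed by 0.29. LGALS1, which encodes the immunosuppressive lectin galectin-1, read 12.68 and 12.72 in knockdown, against 12.999 and 12.920 in non-silencing, a difference of -0.26 (SE 0.12). These were the only members of the list whose groups did not overlap, 1 of 10 in each direction, near the shares of all genes (12.4% with knockdown higher and 15.0% with knockdown lower).

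TNFRSF8, which encodes CD30, read 9.32 and 8.33 in knockdown, against 8.82 and 8.16 in non-silencing, a difference of 0.34 (SE 0.39). MYC, a growth regulator that BATF3 is known to act on, read 10.41 and 9.19 in knockdown, against 9.83 and 9.01 in non-silencing, a difference of 0.38 (SE 0.48). For both genes the number difference was larger, at -0.82 for TNFRSF8 (adjusted p = 0.021) and -1.02 for MYC (adjusted p = 0.0169). CD274, which encodes the checkpoint ligand PD-L1, read 6.46 and 6.67 in knockdown, against 5.36 and 7.03 in non-silencing, so that its difference of 0.37 (SE 0.54) was 1.10 within number 1 and -0.36 within number 2. The cyclin gene CCND2 differed by 0.14 and the chemokine receptor gene CCR7 by -0.07, both with bright signal, whereas PDCD1LG2, GZMB and CDKN2A read at most 5.50 on every array and differed by -0.03, 0.0031 and -0.03.

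**Figure D4:**
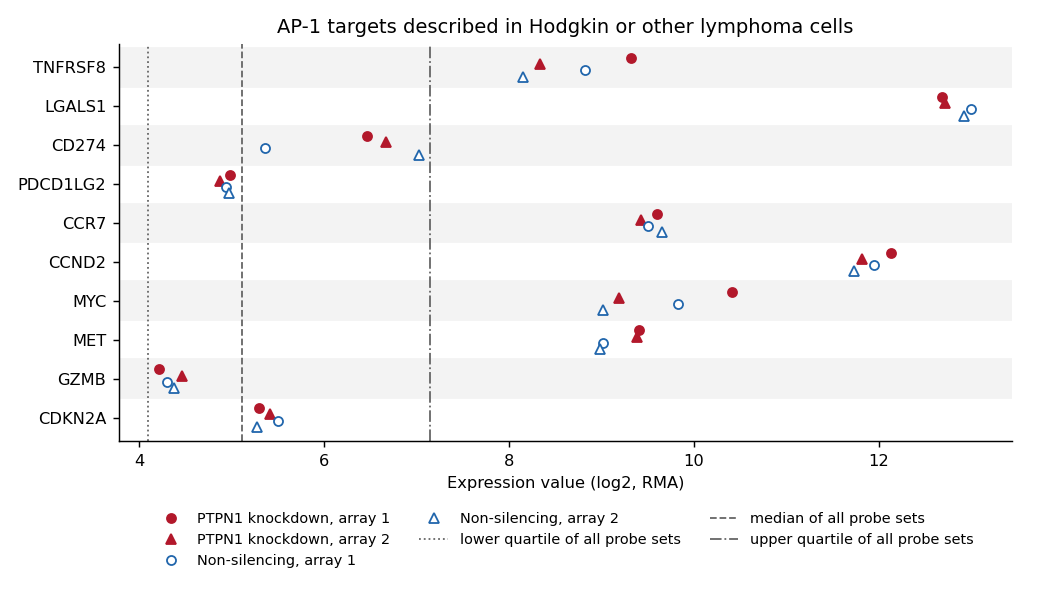
Log2 RMA value (horizontal axis) of 10 genes described as AP-1 targets in lymphoma cells, on the knockdown arrays (filled red) and the non-silencing arrays (open blue), with circles for arrays numbered 1 and triangles for those numbered 2, and quartiles of all probe sets as vertical lines. MET and LGALS1 separate the groups, in opposite directions, and TNFRSF8 and MYC separate the array numbers.

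General AP-1 targets, known mainly from fibroblasts and epithelial cells, had no common direction. Of 24 measured, 12 had a positive and 12 a negative difference, with a median of 0.01. Groups were apart with knockdown higher for 7, among them SPP1, IL6 and HMOX1, against 12.4% of all genes. The signal of the others of these 7 is not given here. Groups were apart with knockdown lower for 3 (CCND1, HBEGF and FASLG, all dim and named after their values were seen), against 15.0% of all genes. SPP1, which encodes osteopontin, read 7.63 and 8.27 in the knockdown arrays, against 5.62 and 5.42 in the non-silencing arrays, a difference of 2.43 (SE 0.24, limma adjusted p = 0.224, and 0.0169 with array number in the fit). With the mean of its probe sets the SPP1 difference was 1.29. The cytokine gene IL6 read 9.11 and 6.97 in knockdown, against 6.65 and 6.71 in non-silencing, and the haem-degrading enzyme gene HMOX1 8.30 and 7.53 in knockdown, against 7.07 and 7.39 in non-silencing. Their differences were 1.36 (SE 0.69) and 0.68 (SE 0.29), and without knockdown array 1 they were 0.29 for IL6 and 0.30 for HMOX1. At the other end stood the urokinase gene PLAU at -0.43, the metallothionein gene MT2A at -0.31 and the gelatinase gene MMP9 at -0.29. Leaving out 1 array moved PLAU between -0.79 and -0.068, MT2A between -0.56 and -0.063 and MMP9 between -0.52 and -0.056. Collagenase genes MMP1 and MMP13, stromelysin gene MMP3, and IL2 did not reach the median signal of all genes. In limma 0 of the 24 passed, and 1, SPP1, had an unadjusted p under 0.05, against 509 of 19775 genes.

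Genes upstream of AP-1 were measured for 20 of 24, with a median difference of 0.05, 12 of them positive. Groups were apart with knockdown higher for 3 of the 20 (MAP2K4, MAP3K5 and SRF) and with knockdown lower for 2 (MAP2K6 and RPS6KA3), against 12.4% and 15.0% of all genes, and MAP2K4 and RPS6KA3 were named after their values were seen. MAP2K6, a kinase that activates p38 MAP kinases, read 6.52 and 6.54 in the knockdown arrays, against 7.20 and 7.62 in the non-silencing arrays. Its log2 difference was -0.88 (SE 0.18), ranged from -1.09 to -0.67 when 1 array was left out, and was -0.52 with the mean of its probe sets. MAP3K8, an ERK pathway kinase gene, differed by -0.35 and ELK4, a serum response factor partner, by -0.33. Without 1 array MAP3K8 ranged from -0.64 to -0.056 and ELK4 from -0.63 to -0.020, and with the mean of its probe sets ELK4 differed by -0.0044. The positive end held ELK3 at 0.21, the stress kinase gene MAP3K5 at 0.20 and SRF, which encodes the serum response factor, at 0.15. Without 1 array MAP3K5 ranged from 0.12 to 0.29 and SRF from 0.091 to 0.22, and with the mean of its probe sets SRF differed by 0.024. In limma 0 passed, and MAP2K6 alone had an unadjusted p under 0.05, against 509 of 19775 genes.

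Related leucine zipper factors were measured for 21 of 24, with a median of 0.02, and groups were apart for 1 of them, NFE2L1, with knockdown higher and named after its values were seen, against 12.4% of all genes with knockdown higher and 15.0% with knockdown lower. In limma 0 passed, and 0 had an unadjusted p under 0.05. The small MAF gene MAFG differed by 0.41 (SE 0.26), the stress regulator gene ATF4 by 0.38 (SE 0.24) and ATF5 by 0.26 (SE 0.35), while MAF, CREB5 and CREM differed by -0.35, -0.33 and -0.27. Without 1 array MAFG ranged from 0.055 to 0.77, ATF4 from 0.098 to 0.66 and CREB5 from -0.61 to -0.054. ATF4 was 0.84 within number 1 and -0.08 within number 2. Genes that limit AP-1 proteins or their kinases were measured for 10 of 12, with a median of 0.07, and likewise 0 passed or had an unadjusted p under 0.05. Among them the ubiquitin ligase genes ITCH and SMURF1 differed by 0.18 and 0.11 and the MAP kinase phosphatase gene DUSP1 by 0.17, against -0.19 for DUSP10, -0.04 for DUSP5 and -0.03 for the ligase gene COP1. Without 1 array SMURF1 ranged from 0.068 to 0.15 and DUSP1 from 0.053 to 0.28.

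The markers of the Hodgkin line, several of which AP-1 and NF-kB act on, read higher on average in knockdown, as most of the family did. All 10 had a positive difference, with a median of 0.30, against 48.2% of all genes. The median was 0.44 within number 1 and 0.18 within number 2. Knockdown read higher within both numbers for 7 of the 10, against 27.8% of all genes, while CD70, TRAF1 and CD274 were lower within number 2. Groups were apart, with knockdown higher, for 2 of the 10, against 12.4% of all genes. TNFRSF8 and CD274 are also among the lymphoma targets above. Differences were positive for 2 of 6 B cell and 5 of 8 T cell markers. For myeloid markers it was 3 of 7, and for markers of stroma and epithelium 4 of 11. Median differences of these lists lay between -0.088 and 0.016. The summed linear signal of the Hodgkin line markers was 8128 and 6591 in the knockdown arrays, against 6345 and 6108 in the non-silencing arrays. Knockdown array 1 was highest, as it was for BATF, BATF3, FOS, FOSL1, JUNB and ATF3. In limma 0 of the 10 passed, and 1, the chemokine gene CCL17, had an unadjusted p under 0.05, against 509 of 19775 genes. The part of these markers, and of the 18S controls that also read higher in knockdown, in the AP-1 values was not tested.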

How the data were processed

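Total RNA from KM-H2 cells was extracted on columns and labelled as biotinylated cRNA with 2 cycles of amplification, per the labels' protocols. The deposited values are log2 expression, which the authors computed by RMA per the submitters' processing notes, in a version not given in the sources used here. They were used without further normalization. RMA equalises the arrays, so a change in total RNA cannot be seen, and the number of arrays limits the precision.

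Probe sets were named through the platform annotation and RefSeq (GRCh38.p14): of 54675, 41097 had 1 gene symbol, 1801 several and 11777 none. The 54 whose gene was not in RefSeq kept their symbol. For a gene with several probe sets, that of highest mean stood for it. Groups were compared in limma 3.58.1 (R 4.3.3, lmFit and eBayes, two-sided, Benjamini-Hochberg adjustment over all genes, threshold 0.05), without covariates. SEs are moderated. The method was tested on simulated data. Groups were called apart where both knockdown arrays lay on 1 side of both non-silencing arrays. An exact permutation test of 2 against 2 arrays could not pass the threshold and was not run.

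The members and lists were chosen with earlier results of these data known. All members and lymphoma targets are named, PTPN1, the 3 genes most like a member spanning over 1 log2 unit, and of other AP-1 lists the 3 highest and 3 lowest differences among genes whose mean reached the median of all genes. Marker lists were meant to be described by level, and their differences are given in addition. The dim MMP and IL2 genes, the low markers, CR2 and COL1A1 were named after their values were seen. Listed genes without a probe set of 1 symbol are not analysed here. Alternatives covered normalization, probe set choice, a filter, variance models, a replicate block and leaving out each array.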

Additional observations from a re-analysis of the deposited data

How the results depend on the processing

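Under the 8 settings other than leaving out an array, 0 of 76 recomputed member differences changed sign or passed the test. The filter, variance models, replicate block and separate test of all probe sets leave a difference as it is, so no sign could change there. Only quantile normalization, centring of the arrays and averaging of probe sets could move it. Averaging moved ATF3 from 0.15 to 0.0074, JUN from 0.33 to 0.41, JUND from -0.07 to -0.13 and FOSL2 from -0.05 to -0.03. Among genes named outside the family 2 of 293 values changed sign, CDKN2A to 0.013 and CLEC2D to -0.072 with the mean of all probe sets. These 293 also include the settings that cannot move a difference. The count of genes past the threshold was 0, and 1 with a mean-variance trend, 0 to 1 without 1 array and 72 with the replicate block, where SPP1 (adjusted p = 0.0169) and PTPN1 (0.0251) passed in limma. The labels tie the numbers to no shared batch. Deviations of same-numbered arrays from their group means correlated at 0.648 across genes, which are not replicates.

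Without 1 array, JUN (0.26 to 0.39), JUNB (0.10 to 0.31) and ATF3 (0.07 to 0.23) stayed positive. The others crossed 0: JUND from -0.38 to 0.24, FOS from -0.016 to 0.39, FOSB from -0.038 to 0.052, FOSL1 from -0.14 to 0.74, FOSL2 from -0.24 to 0.13, BATF from -0.28 to 0.87 and BATF3 from -0.17 to 0.54. The median over members ranged from 0.018 to 0.31 and the members above 0 from 5 to 9, lowest without knockdown array 1. With dim genes filtered out 5 members were above 0, because only 6 were tested. That count, and values of genes outside the family, were recomputed after seeing the data. Among genes outside the family, SLC7A5 (-0.20 to 0.76), CLEC2D (-0.37 to 0.69), TNFRSF8 (-0.15 to 0.83), MYC (-0.23 to 0.99), CD274 (-0.46 to 1.21), CCND2 (-0.015 to 0.30), CCR7 (-0.16 to 0.021), PDCD1LG2 (-0.087 to 0.024), GZMB (-0.12 to 0.13), CDKN2A (-0.14 to 0.082), ATF5 (-0.17 to 0.69), MAF (-0.76 to 0.062), CREM (-0.59 to 0.053), ELK3 (-0.10 to 0.52), ITCH (-0.042 to 0.41), DUSP10 (-0.44 to 0.064), DUSP5 (-0.30 to 0.21) and COP1 (-0.25 to 0.19) also crossed 0 without 1 array. A fit that leaves 1 array in a group takes its spread from the other. Array numbers are uneven between the groups in such a fit, so differences between numbers enter its values. The causes were not tested. The number of arrays, 2 in a group, limits every value.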
